A study of Mus musculus with 48 samples.

Results

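The comparison set CD-1 against C57Bl/6 mice at postnatal days 21 and 42 (P21 and P42) in dissected hypothalamus and preoptic area. Of the 48 arrays of the series, 8 were labelled with these ages, a single one per age, strain and sex. The array labelled C57Bl/6 P42 male was left out because its signal for Mobp, a gene of mature myelin, was 61.6, against 2929.6 to 7516.6 in the others. That left 7 arrays, 3 from C57Bl/6 (both sexes at P21 and the female at P42) and 4 from CD-1 (both sexes at each age). C57Bl/6 is an inbred strain and CD-1 an outbred stock, and all the mice had standard chow under a 12:12 cycle of light and dark. The number of animals per array is not given in the labels, so the p-values measure the spread between these arrays, which may be partly technical. The other 40 arrays cover embryonic day 10 (E10) to birth (P0), 20 per strain, and are used here only to ask whether a strain difference was also present earlier.

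The hypothalamus controls feeding, body temperature, salt and water balance, growth, reproduction and sleep, largely through neurons that release peptides, and the preoptic area at its front end takes part in temperature control and sexual behaviour. Hypothalamic peptides reach the brain through axons, the blood through the posterior pituitary, or the anterior pituitary through local vessels. P21 is about the age of weaning and P42 is young adulthood, when myelin is being laid down and hormone systems mature. Inbred and outbred mice differ at many loci, among them the polymorphic genes of the major histocompatibility complex (MHC).

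Values are array signal on a linear scale, and each difference is CD-1 minus C57Bl/6 on log2(signal + 16), which understates the change of dim genes. The array medians were 51.3 to 61.6. Among the genes named, 15 lay below the array median in every array of 1 strain: Gh, Rec8, Birc5, Apoa2, Pcdhgc4 and Vwf in CD-1, and Tmem87a, Zscan29, Cnnm4, Cdc42ep2, Gm5617, Gpatch11, H2-Ab1, Ifit2 and Mcm6 in C57Bl/6. They were tested only because the other strain was brighter. The size of their difference depends on the pseudocount, so it is given as a description with no test. Counts of called genes and rankings still include them.

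Markers of the dissected tissue were present in every array: Otp, a factor for neuroendocrine neurons, ranged from 638.5 to 806.1, and the peptide genes Pmch, Hcrt, Avp and Oxt were above the array median in all 7. Nkx2-1, a defining gene of the embryonic hypothalamus, lay below the array median in 7 of 7 arrays. So did Tbr1 and Neurod6 of the cerebral cortex and Gbx2 of the thalamus, while the thalamic markers Tcf7l2 and Prkcd lay above it in 7 of 7. The summed signal of 10 thalamus genes was 4236 to 4756 in C57Bl/6 and 5081 to 6516 in CD-1, without overlap. That of 10 genes of cerebral cortex and hippocampus was 1936 to 1986 against 1538 to 1806, also without overlap. Of these 10, 7 were above the array median in at least 3 arrays. The part of neighbouring tissue in these sums was not tested. Correlations between arrays, over the tested genes, were 0.974 to 0.976 within C57Bl/6, 0.96 to 0.984 within CD-1 and 0.905 to 0.928 between the strains.

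The beta-actin and Gapdh control transcripts differed between the strains along their length. For beta-actin, the ratio of the signal at the 3′ end of the transcript to that at the 5′ end was 4.22, 3.77 and 4.49 in the C57Bl/6 arrays and 1.1 to 1.21 in the CD-1 arrays. The groups did not overlap, and the log2 difference of 1.87 had an exact permutation p of 0.0571 (two-sided), the smallest that 35 splits of 3 against 4 arrays allow. Relative to CD-1, the mean C57Bl/6 signal for beta-actin was 126.3% at the 3′ end, 63.09% in the middle and 34.58% at the 5′ end. The Gapdh control gave the same order, with ratios of 2.42, 1.72 and 2.1 in C57Bl/6 and 0.78 to 0.836 in CD-1. For pyruvate carboxylase the ratios overlapped, at 3.44, 10.7 and 7.71 in C57Bl/6 and 2.45 to 4.08 in CD-1 (exact permutation p = 0.171). For the transferrin receptor they also overlapped, at 4.55 to 16.4 against 5.78 to 19.4 (exact permutation p = 0.743). At E10 to P0 the beta-actin ratio was 1.17 to 2.2 in C57Bl/6 (median 1.37) and 1.03 to 1.13 in CD-1 (median 1.09). Since a high beta-actin ratio went with each of the 3 C57Bl/6 arrays used, the ratio and the strain cannot be told apart among the 7 arrays. In the left-out C57Bl/6 P42 male the beta-actin ratio was 1.28. A probe set is a group of short probes that reads 1 stretch of a transcript. Where a gene called here had several tested probe sets and not all were called the same way, that is said beside it. The other called genes had a single tested probe set or all of them called the same way.

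**Figure D1:**
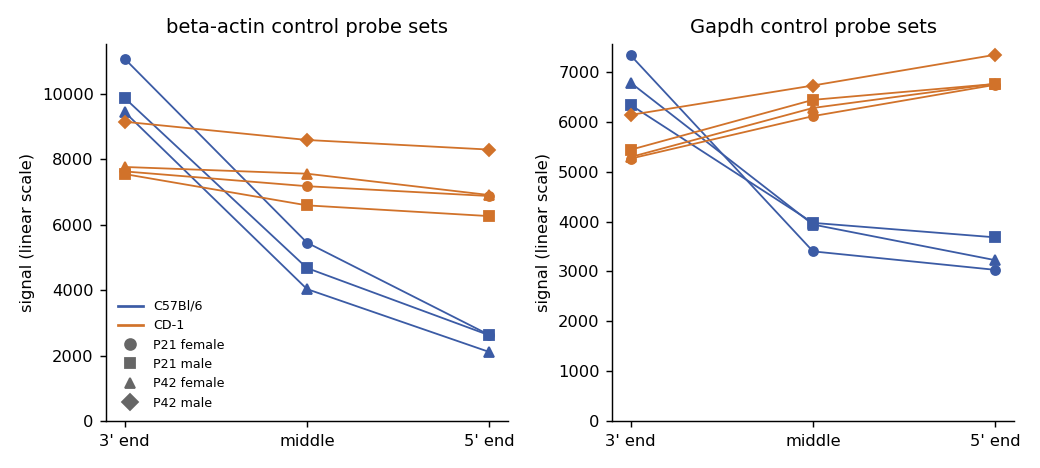
Signal (linear scale, vertical axis) of the control probe sets for beta-actin (left) and Gapdh (right) at the 3′ end, middle and 5′ end of the transcript. Each line is 1 array, blue for C57Bl/6 and orange for CD-1, with the marker giving age and sex. The 3 C57Bl/6 lines fall toward the 5′ end, while the CD-1 lines stay near level or climb for Gapdh.

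Many genes differed between the strains. Of 11922 genes tested, limma called 4803 (40.3%) at an adjusted p under 0.05, with 2653 (22.3%) higher and 2150 (18.0%) lower in CD-1 and a median difference of 0.026. Among the called genes, 511 differed at least 2-fold, 243 of them higher and 268 lower. At the level of probe sets, 9091 of 20516 (44.3%) were called. The count fell to 2949 without the C57Bl/6 P42 female, to 2980 without the CD-1 P21 female, and to 1297 with the left-out array added. With all arrays except the left-out one in a single fit, and the log2 beta-actin ratio of each array as a covariate, 439 genes were called. Of the 4803 genes, 300 were then still called with the same sign and 1003 had the opposite sign, 12 of these with a call.

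Probe sets of the same gene often disagreed. Of 5220 genes with 2 or more tested probe sets, 2303 (44.1%) had all their differences in 1 direction. In 537 genes (10.3%) every probe set was called the same way, 322 higher and 215 lower in CD-1. In 822 genes (15.7%) called probe sets pointed both ways. At E10 to P0, where the control ratios of the strains lay closer together, 748 genes (14.3%) had all probe sets called 1 way and 908 (17.4%) had called probe sets of both signs.

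The genes with the largest differences on which all probe sets agreed included a surface antigen, nuclear RNAs and pituitary hormones. Genes were ranked by the median difference over their probe sets, among those with at least 2 called, all of 1 sign, and the same sign in all 3 pairs of arrays matched for age and sex. There were 356 such genes higher and 263 lower in CD-1. The 10 highest were Cap1, Syngr3, Ugt8a, Rnf13, Kpna3, H2-D1, Oprl1, Sirpa, Cacnb2 and Isca1. The 10 lowest were Gh, Pisd-ps3, Pomc, Rps9, Malat1, Vcp, Pttg1, Caskin1, Odr4 and Sbsn.

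**Figure D2:**
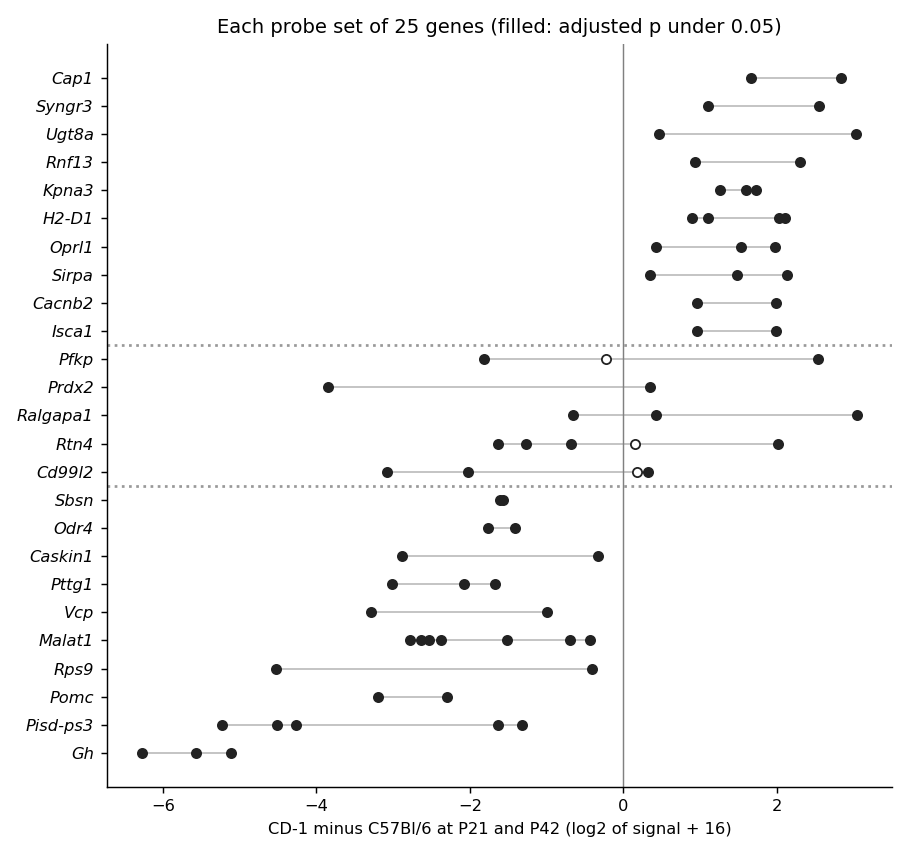
Difference of each tested probe set (horizontal axis, CD-1 minus C57Bl/6 at P21 and P42, log2 of signal + 16) for the 10 highest genes (top), the 5 genes with the widest conflict between called probe sets (middle) and the 10 lowest genes (bottom). Filled points were called at an adjusted p under 0.05. All points of the top genes lie right of 0 and all points of the bottom genes left of 0, while probe sets of Rtn4, for example, range from -1.64 to 2.02.

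Cap1, which binds actin monomers and recycles them, had a signal of 246.7, 215.8 and 209.5 in C57Bl/6 and 580.8 to 867.0 in CD-1. Its probe sets differed by 1.66 (SE 0.13, adjusted p = 1.16e-05) and 2.84, and by 1.74 and 2.70 at E10 to P0. Syngr3, a synaptic vesicle protein, had signals of 401.1 to 469.8 against 861.4 to 1082.9, a difference of 1.11 (SE 0.11, adjusted p = 3.51e-05). Oprl1, the receptor for the opioid-like peptide nociceptin, was at 154.7 to 169.1 in C57Bl/6 and 427.9 to 569.1 in CD-1. It differed by 1.54 in its brightest probe set, with 3 of 3 probe sets called higher. Kpna3, an importin that carries proteins into the nucleus, was at 195.7 to 211.2 against 463.5 to 576.2. In all of these genes the groups of arrays did not overlap. The same held for 2973 genes higher and 2373 lower in CD-1 among the 11922 tested, so a lack of overlap was common. Cap1, H2-D1, Oprl1, Kpna3, Cacnb2 and Isca1 were also called higher at E10 to P0, while Syngr3 (0.14, adjusted p = 0.164), Rnf13 (0.01), Ugt8a (-0.17) and Sirpa (-0.04) were not called there.

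Some of these genes depended on which probe set was read. Sirpa, a receptor on neurons and myeloid cells that binds CD47, had 1 bright probe set at 835.0 to 904.2 in C57Bl/6 and 910.2 to 1201.4 in CD-1, a difference of 0.35. Another Sirpa probe set was at 57.3 to 81.1 against 297.9 to 435.0, a difference of 2.13. Ugt8a, which makes the galactolipids of myelin, likewise gave 0.47 and 3.03. On the lower side, the ribosomal protein gene Rps9 gave -0.41 in a probe set at 1582.3 to 2399.5 in CD-1 and -4.52 in one at 48.8 to 78.7. The second difference was nearly as large at E10 to P0 (-3.88), where the first was 0.11 (adjusted p = 0.101). Caskin1, a synaptic scaffold protein, gave -0.33 and -2.88.

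Malat1, an abundant RNA that stays in the nucleus, was lower in CD-1 in 7 of 7 probe sets. Its brightest probe set had signals of 9610.6, 10834.0 and 10366.3 in C57Bl/6 and 2384.0, 1880.5, 2291.5 and 926.7 in CD-1, with no overlap. The difference was -2.38 (SE 0.19, adjusted p = 1.23e-05), and over the other probe sets it ran from -2.78 to -0.44. Malat1 was also lower in CD-1 at E10 to P0, by -1.37 (adjusted p = 2.34e-07). Snhg11, another long RNA that is abundant in neurons, was at 5558.0 to 6849.0 against 1040.0 to 1711.6, a difference of -2.12, with both probe sets called lower. Vcp, an ATPase that extracts proteins for degradation, was at 4184.9 to 4451.5 in C57Bl/6 and 1887.3 to 2341.7 in CD-1, a difference of -1.0. Pisd-ps3, a pseudogene-like copy of a gene for phospholipid synthesis, was lower in all 5 probe sets, from -5.23 to -1.32. Reads of such a copy and of its parent gene cannot be told apart on these probes.

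Pttg1, securin, which keeps sister chromatids from separating before anaphase, was lower in CD-1 at P21 and P42 but not before. Its signals were 2421.1, 1753.1 and 2633.8 in C57Bl/6 and 264.6, 219.2, 257.9 and 359.5 in CD-1, a difference of -3.01 (SE 0.15, adjusted p = 8.59e-07) with 3 of 3 probe sets called lower. At E10 to P0 the same probe set was higher in CD-1 by 0.45 (adjusted p = 0.00917). The interaction of strain with stage, which tests whether the strain difference changed between E10 to P0 and P21 to P42, was -3.46 (adjusted p = 9.61e-08). Of 8 other cell division genes tested, 2 were called higher (Pcna 1.52, Mcm6 0.80), beside 22.3% of all genes. Another 2 were called lower (Birc5 -0.96, and Ccnd2 -0.62 with 3 of 5 probe sets called), beside 18.0% of all genes. Mcm6 lay below the array median in every C57Bl/6 array and Birc5 in every CD-1 array. Both count among these calls, but are given with no test.

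Gh, Prl and Pomc, hormone genes of the anterior pituitary, were lower in CD-1 than in C57Bl/6. Gh, growth hormone, had a signal of 6386.3 in the C57Bl/6 P21 female, 132.4 in the P21 male and 10979.8 in the P42 female, and 35.3, 13.6, 35.6 and 5.8 in CD-1. The groups did not overlap, but the C57Bl/6 arrays themselves spanned a wide range. The CD-1 values all lay below the array median, and the difference on the log scale was -5.57. Prl, prolactin, was at 458.3, 47.1 and 1040.6 in C57Bl/6 and 20.7, 8.2, 60.1 and 11.7 in CD-1, with 1 of the 4 CD-1 arrays above the array median. The groups overlapped, with a difference of -2.97 (SE 0.36, adjusted p = 0.00011). Without the C57Bl/6 P21 and P42 females, the arrays with the highest Gh, the Prl difference was -1.59 (adjusted p = 0.0625). Of 7 pituitary genes tested 4 were called lower in CD-1 (57.1%, beside 18.0% of all genes) and 0 higher, with a median of -0.36. The fourth was the granule protein Chga (-0.36), and Gh counts among the 4 although it is given with no test. Tshb (-0.21), Lhb (-0.20) and Cga (-0.28), subunits of the other anterior pituitary hormones, were not called. The summed signal of the pituitary list was 8844, 2124 and 18536 in C57Bl/6 and 1258 to 1783 in CD-1. The part of pituitary tissue in these differences was not tested.

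Pomc, the precursor of melanocortins and beta-endorphin, is made both by arcuate neurons that curb feeding and by pituitary cells. It was at 719.0, 778.1 and 4691.6 in C57Bl/6 and 260.1, 214.4, 469.2 and 300.6 in CD-1. The difference was -2.30 (SE 0.30, adjusted p = 0.000161), and a second probe set gave -3.19. The Pomc signal was highest in the array with the highest Gh. In the C57Bl/6 P21 male both genes lay above each CD-1 array, Pomc at 778.1 and Gh at 132.4 (35.6 or less in CD-1). The part of pituitary tissue in the Pomc difference was not tested. Pomc differed by -0.22 at E10 to P0 (adjusted p = 0.0706). With the beta-actin ratio as a covariate the difference was -0.57 (adjusted p = 0.705).

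**Figure D3:**
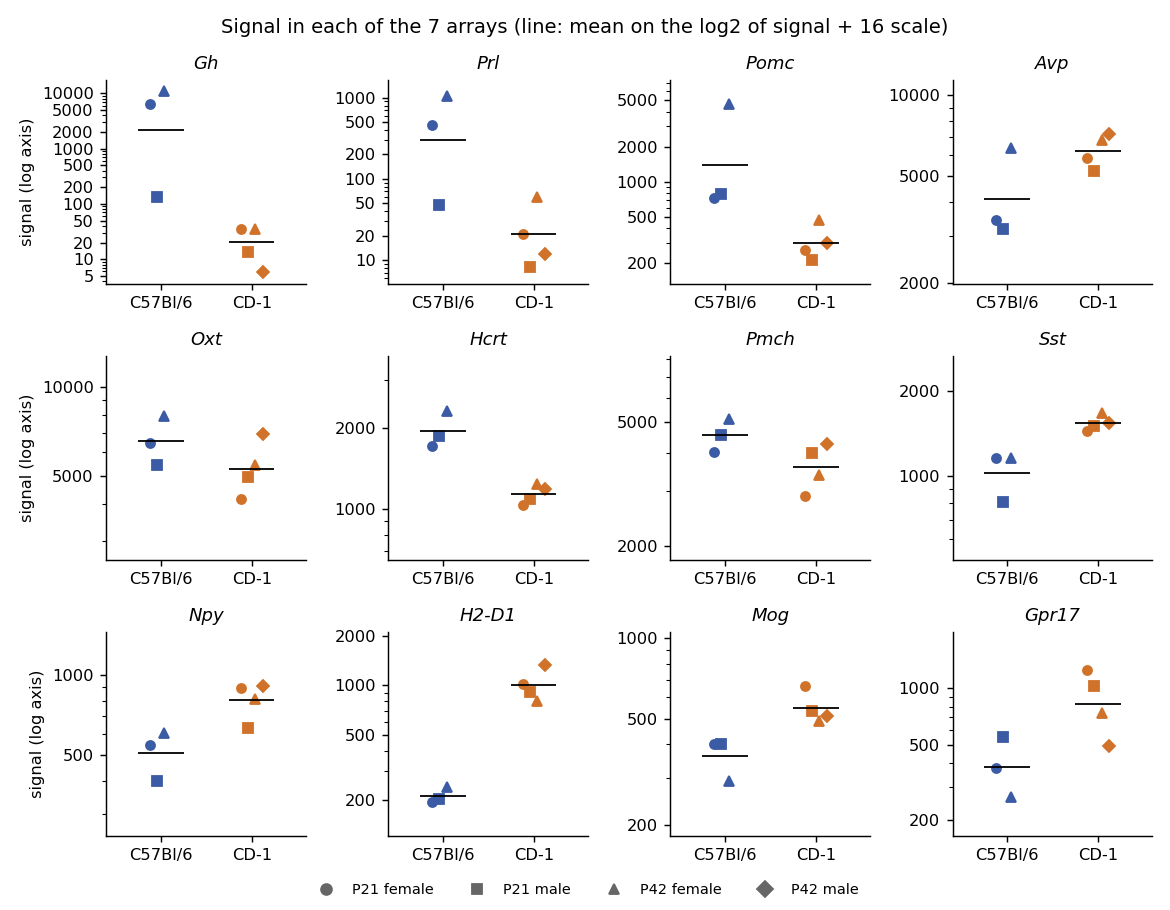
Signal of 12 genes (vertical axis, log scale) in each of the 7 arrays, blue for C57Bl/6 and orange for CD-1, with markers for age and sex and a line at the mean on the log2 of signal + 16 scale. Gh spans 132.4 to 10979.8 within C57Bl/6 and stays at 35.6 or less in CD-1, while H2-D1, Hcrt, Sst and Npy separate the strains without overlap. Among the 11922 genes tested, 2973 higher and 2373 lower in CD-1 did so.

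Hypothalamic peptide genes differed in both directions. Of 28 tested, 7 were called higher in CD-1 (25%, beside 22.3% of all genes) and 8 lower (28.6%, beside 18.0%), with a median of 0.09. Of these 15, 13 were read by a single tested probe set. The lower count was 2 without the C57Bl/6 P42 female and 3 without the CD-1 P21 female, and the higher count was 4 without the latter. Avp, vasopressin, which conserves water, was at 3434.3, 3179.0 and 6377.2 in C57Bl/6 and 5848.6, 5214.3, 6829.0 and 7150.5 in CD-1. The groups overlapped through the C57Bl/6 P42 female, and the difference was 0.52 (SE 0.11, adjusted p = 0.00371). Without the CD-1 P21 female it was 0.40 (adjusted p = 0.0649). Oxt, oxytocin, made by neighbouring neurons of the same nuclei, went the other way, with 5451.9 to 7958.7 in C57Bl/6 and 4159.8 to 6904.7 in CD-1 and a difference of -0.40 (adjusted p = 0.00923). Its sign turned when the left-out array was added (0.69, adjusted p = 0.602).

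Hcrt and Pmch were lower in CD-1. Hcrt, hypocretin or orexin, which sustains wakefulness, had signals of 1716.5, 1872.8 and 2315.4 in C57Bl/6 and 1037.2, 1091.8, 1232.3 and 1188.6 in CD-1. The groups did not overlap, and the difference was -0.82 (SE 0.09, adjusted p = 7.14e-05). Pmch, melanin-concentrating hormone, which promotes feeding, was at 4022.1 to 5117.2 against 2898.7 to 4263.0, overlapping, with a difference of -0.43 (adjusted p = 0.00318). Both were also called lower at E10 to P0, Hcrt by -0.22 and Pmch by -0.39. With the left-out array added, neither was called and both signs turned (0.13 for Hcrt and 0.41 for Pmch).

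Somatostatin and neuropeptide Y were higher in CD-1. Sst, which restrains growth hormone release, was at 1164.6, 809.1 and 1160.8 in C57Bl/6 and 1451.3 to 1673.4 in CD-1, a difference of 0.59 (SE 0.11, adjusted p = 0.00165). Npy, which drives feeding, was at 547.2, 399.9 and 603.8 against 631.9 to 905.0, a difference of 0.65 (SE 0.13, adjusted p = 0.00194). Both separated the strains and both were called higher at E10 to P0, by 0.84 and 0.26. Vip, a signal of the circadian clock nucleus, was higher by 0.74 (adjusted p = 0.016) in overlapping groups. Nts (0.60), Npvf (0.49) and Tac2 (0.35) were the other 3 called higher, and Tac1 (-0.30), Adcyap1 (-0.38, with a second probe set called higher), Chga (-0.36) and Chgb (-0.38) completed those called lower. Crh (-0.49, adjusted p = 0.0649), Cartpt (0.31, adjusted p = 0.0604), Gal (0.27), Ghrh (0.25) and Trh (-0.05) did not pass the test. With the beta-actin ratio as a covariate none of the 28 was called, and Sst was at -2.62 (adjusted p = 0.0957).

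Genes listed under neuropeptide processing were called higher in CD-1 in 5 of 9 cases (55.6%, beside 22.3% of all genes). The list includes enzymes and chaperones that turn peptide precursors into hormones. A single gene was lower (11.1%, beside 18.0%), and the median was 0.32. The higher count was 2 without the C57Bl/6 P21 male or the P42 female and 3 without the CD-1 P21 male. Pam, which amidates the carboxyl end of peptides such as vasopressin, was at 429.6, 328.0 and 390.9 in C57Bl/6 and 1293.8, 595.9, 1418.5 and 1441.1 in CD-1. The CD-1 P21 male was the low array, still above C57Bl/6, and the difference was 1.52 (SE 0.21, adjusted p = 0.000212). Scg5, the chaperone of the processing enzyme Pcsk2, was at 952.6 to 1377.0 against 2242.6 to 2748.0, a difference of 1.11, and was higher by 1.15 at E10 to P0. Qpct (0.70), Pcsk1 (0.67) and Cadps (0.32) were also higher, and Cpe, which trims basic residues, was lower (-0.46, 1 of 2 probe sets called). Each of these 5 higher genes was read by a single tested probe set.

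Genes of monoamine neurons were called higher in 4 of 8 cases (50.0%, beside 22.3% of all genes) and lower in 1 (12.5%, beside 18.0%). The higher count was 1 without the C57Bl/6 P21 male, the CD-1 P21 female or the CD-1 P21 male, and 2 without the C57Bl/6 P42 female. Slc18a2, the transporter that loads monoamines into vesicles, was at 100.4 to 117.7 in C57Bl/6 and 146.5 to 279.3 in CD-1, a difference of 0.98 (SE 0.15, adjusted p = 0.000434). Slc6a3, the dopamine transporter, was higher by 0.75 in overlapping groups. Th, the rate-limiting enzyme of dopamine synthesis, differed by 0.20 (adjusted p = 0.339). Hdc, which makes histamine, gave opposite answers, with -0.94 from its brighter probe set and 1.37 from the other, both called.

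Among receptors and transmitter genes, the vesicular glutamate transporter Slc17a6 was higher in both probe sets, at 748.2 to 862.7 against 1428.5 to 1584.7 and a difference of 0.93 (SE 0.09, adjusted p = 3.17e-05). It was also higher at E10 to P0, by 0.40. Slc17a6 is one of the 10 thalamus genes whose summed signal was higher in CD-1. The sum of the other 9 was 3488 to 3968 against 3652 to 4973, and the part of thalamic tissue in the Slc17a6 difference was not tested. The glutamate receptor subunits Grin2b (-1.30), Gria1 (-1.14) and Gria2 (-0.88) were lower in CD-1, with 1 of 2 probe sets called for Grin2b and Gria1, and for Gria2 a further probe set called higher. Npy1r, a receptor for neuropeptide Y, was lower by -0.90, and Nr3c1, the glucocorticoid receptor, higher by 0.59, with 2 of 4 probe sets called. Of 19 hormone receptors 4 were called higher (21.1%, beside 22.3% of all genes) and 1 lower (5.26%, beside 18.0%). The higher count was 1 without the C57Bl/6 or the CD-1 P42 female and 2 without the C57Bl/6 P21 male or either CD-1 P21 array, and the lower count was 3 without the C57Bl/6 P21 male. Esr1, Pgr and Oxtr were not called (0.07, 0.09 and 0.22).

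Late myelin genes did not move as a block. The summed signal of 16 myelin and oligodendrocyte genes was 27526 to 34834 in C57Bl/6 and 24904 to 27056 in CD-1. This sum includes the probe set of Mobp that chose the arrays, so it gives no comparison of the strains. Of the 16 tested, 8 were called higher (50.0%, beside 22.3% of all genes) and 3 lower in CD-1 (18.8%, beside 18.0%), with a median of 0.30. The higher count was 3 without the C57Bl/6 P42 female and 4 without the C57Bl/6 P21 male or the CD-1 P21 female. Quantile normalization left 1 lower. Mog, a surface protein of myelin, was at 403.1, 401.9 and 291.5 in C57Bl/6 and 489.6 to 660.1 in CD-1, a difference of 0.64 (SE 0.11, adjusted p = 0.00125). Tspan2, a myelin tetraspanin, was higher by 0.77 in 3 of 3 probe sets, and Fa2h, which hydroxylates myelin lipids, by 0.61. The 3 lower were Mobp, Mbp and Cnp, the last with 2 of its 3 probe sets called higher. Mbp, myelin basic protein, was at 9493.3 to 10821.0 against 6917.4 to 8623.7, a difference of -0.50 (SE 0.09, adjusted p = 0.000859), with 6 of 8 probe sets called lower. Mobp was at 6134.9 to 7516.6 against 2929.6 to 3574.2 in the probe set that chose the arrays, which is given with no test although it counts among the 3, and another probe set of Mobp was higher in CD-1 by 0.37. With the array of low Mobp added, none of the 16 was called at P21 and P42, and with the beta-actin ratio as a covariate none was.

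Precursors of oligodendrocytes had the highest share of genes called higher among the 38 lists, 5 of 7 (71.4%, beside 22.3% of all genes). A single gene was lower (14.3%, beside 18.0%), and the median was 0.54. The higher count was 3 without the C57Bl/6 P42 female. Gpr17, a receptor of cells about to form myelin, was at 376.7, 551.2 and 264.3 in C57Bl/6 and 1246.1, 1024.1, 741.6 and 491.5 in CD-1. The CD-1 P42 male lay below the C57Bl/6 P21 male, and the difference was 1.25 (SE 0.17, adjusted p = 0.000188). Pdgfra, the growth factor receptor that marks these precursors, was at 193.3 to 251.5 against 274.4 to 539.9, a difference of 0.91 in 1 of its 2 probe sets and 0.70 in the other. Olig2 (0.76), Olig1 (0.52) and Vcan (0.54) were higher and Tnr (-0.50) lower. With the beta-actin ratio as a covariate none was called, the median was -0.45 and Pdgfra turned to -2.23. In bulk tissue fewer cells of a type and less RNA per cell cannot be told apart.

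Of 19 astrocyte genes 6 were called higher (31.6%, beside 22.3% of all genes) and 4 lower (21.1%, beside 18.0%), with a median of 0.18. After quantile normalization 9 were higher and 3 lower with a median of 0.34, and 2 were lower without the C57Bl/6 P42 female. Aqp4, the water channel of astrocyte end feet, was at 575.0 to 909.1 in C57Bl/6 and 1184.2 to 1378.6 in CD-1, a difference of 0.82 (SE 0.11, adjusted p = 0.00019) in 3 of 3 probe sets. Aqp4 was lower in CD-1 at E10 to P0 (-0.49), and the interaction was 1.35. Slc1a2, the main glutamate transporter of astrocytes, was at 4496.3 to 5654.9 against 1972.5 to 2967.1, a difference of -0.98, but 1 of its 3 probe sets was called. Of 13 microglial genes 3 were called higher (23.1%, beside 22.3% of all genes) and 1 lower (7.69%, beside 18.0%). With 1 array left out 2 to 4 were higher and 1 or 2 lower. P2ry12, a receptor of resting microglia, was at 71.1 to 94.1 against 240.6 to 296.8 (1.55, SE 0.14), and C1qb, a complement subunit, at 418.2 to 471.8 against 120.6 to 155.4 (-1.55, SE 0.13, 2 of 3 probe sets called).

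Blood vessel genes were called lower in CD-1 in 6 of 16 cases (37.5%, beside 18.0% of all genes) and higher in 0, with a median of -0.24. The lower count was 3 without the CD-1 P21 female. Slc2a1, the glucose transporter of the blood-brain barrier, was at 1963.2, 1527.0 and 1199.4 in C57Bl/6 and 623.1 to 897.8 in CD-1, a difference of -0.92 (SE 0.12, adjusted p = 0.000175), with 2 of 3 probe sets called. Vwf, a clotting protein stored by endothelial cells, was at 76.9 to 107.0 against 36.5 to 43.9, a difference of -0.98, and Flt1, a receptor for vascular growth factor, differed by -0.94 with 1 of 4 probe sets called. Vwf counts among the 6 lower, but lay below the array median in every CD-1 array and is given with no test. Earlier, at E10 to P0, 10 of the 16 genes were lower (beside 22.5% of all genes) and 0 higher (beside 27.0%). Slc2a1 was still called lower with the beta-actin ratio as a covariate, at -2.44.

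The class I gene H2-D1 was higher in CD-1 in 4 of 4 probe sets, and H2-K1 and B2m were higher in their brightest probe sets. H2-D1, a classical class I heavy chain that presents peptides to T cells, had signals of 193.2, 202.4 and 238.6 in C57Bl/6 and 1022.9, 911.9, 801.7 and 1329.0 in CD-1. The difference was 2.10 (SE 0.15, adjusted p = 5.85e-06), the other 3 probe sets gave 2.03, 1.10 and 0.89, and at E10 to P0 it was 1.18. B2m, the light chain that every class I molecule needs, was at 622.9 to 668.0 against 927.9 to 1353.0, a difference of 0.82 (SE 0.11, adjusted p = 0.000209), and 0.42 at E10 to P0. The second probe set of B2m gave 0.12 and was not called. H2-K1, the second classical heavy chain, was higher by 0.76 in its brightest probe set, while its 4 probe sets ranged from -0.63 to 1.33, with 3 called higher and 1 lower. H2 genes are near-identical copies and reach different alleles in different strains, so how a probe set divides between them is uncertain. H2-Ab1, a class II chain, was at 6.6 to 38.9 against 55.2 to 121.0 (1.37), given with no test. At E10 to P0 it went the other way (-0.50), with low means of 32.3 in C57Bl/6 and 16.4 in CD-1. Of 12 MHC and antigen presentation genes 4 were called higher (33.3%, beside 22.3% of all genes), H2-Ab1 among them, and 0 lower, with a median of 0.15. At E10 to P0, 5 were higher and 3 lower, beside 27.0% and 22.5% of all genes. With the beta-actin ratio as a covariate none of the 12 was called, H2-D1 was at 2.10 (adjusted p = 0.0732) and B2m turned to -1.25.

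The promoters of the 3 class I genes are shown because the brightest probe set of each was called higher in CD-1. Each sequence is the 250 bases before the transcription start in RefSeq (build GRCm38.p6, the C57BL/6J reference), 5′ to 3′ on the coding strand, at chr17:35262844-35263093 (plus strand) for H2-D1, chr17:34000348-34000597 (minus strand, 1 of 2 listed starts) for H2-K1 and chr2:122147437-122147686 (plus strand) for B2m. Capitals mark the letters TTTCNNTT, found in interferon response elements, or its reverse complement, and GGGNNTTCC, a form of the sites bound by NF-kappa B; no match to the latter stood in the B2m window.
H2-D1: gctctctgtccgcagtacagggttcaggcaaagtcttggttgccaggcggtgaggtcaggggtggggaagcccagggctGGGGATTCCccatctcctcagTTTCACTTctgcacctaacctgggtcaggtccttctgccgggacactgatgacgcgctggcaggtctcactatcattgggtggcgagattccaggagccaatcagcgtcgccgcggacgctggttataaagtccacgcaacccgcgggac
H2-K1: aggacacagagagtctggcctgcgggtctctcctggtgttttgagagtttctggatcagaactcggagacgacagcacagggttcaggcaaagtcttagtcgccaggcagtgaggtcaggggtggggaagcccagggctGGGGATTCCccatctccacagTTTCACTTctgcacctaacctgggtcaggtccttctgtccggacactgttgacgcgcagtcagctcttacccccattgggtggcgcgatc
B2m: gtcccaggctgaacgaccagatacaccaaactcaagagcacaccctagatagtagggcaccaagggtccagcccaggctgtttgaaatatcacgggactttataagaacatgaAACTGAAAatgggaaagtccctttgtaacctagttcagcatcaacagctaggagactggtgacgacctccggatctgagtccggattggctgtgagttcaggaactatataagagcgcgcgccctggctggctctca

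On either strand, TTTCNNTT occurred in 6999 of 32851 RefSeq promoter windows of 250 bases (21.3%) and GGGNNTTCC in 1635 (4.98%), so the first is common among promoters and the second less so. The matches describe letters in the C57BL/6J reference, and the CD-1 sequence was not analysed here. The windows of H2-D1 and H2-K1 matched at 161 of 177 aligned positions (91.0%).

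Interferon-induced genes were seldom called. Of 19 tested, 1 was called higher in CD-1 (5.26%, beside 22.3% of all genes) and 2 lower (10.5%, beside 18.0%), with a median of -0.30. With 1 array left out 0 to 2 were higher and 0 to 4 lower. The 1 higher was Ifit2, at 26.3 to 46.3 in C57Bl/6, below the array median, and 60.9 to 94.6 in CD-1. Its difference of 0.92 is given with no test. Gbp3 was lower by -0.93 and Irf1 by -0.43.

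Strain differences present at both stages reached further than the class I genes. Of the genes called at P21 and P42, 2627 were called at E10 to P0 with the same sign (1541 higher and 1086 lower), which is 54.7% of the later calls and 44.5% of the 5906 earlier ones. The earlier calls were 49.5% of all genes (27.0% higher and 22.5% lower), but only 73 of them reached 2-fold. Another 243 genes were called at both stages with opposite signs. Of the 2627, 635 had 2 or more probe sets, all of 1 sign. The beta-actin ratios of the strains did not overlap at E10 to P0 either (1.17 to 2.2 in C57Bl/6, 1.03 to 1.13 in CD-1). The part of the ratio in the agreement between stages was not tested. Of the 300 later calls kept with the ratio as a covariate, 169 were called at E10 to P0 with the same sign, in the fit without the ratio. Among these 169, 40 had 2 or more probe sets, all of 1 sign.

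**Figure D4:**
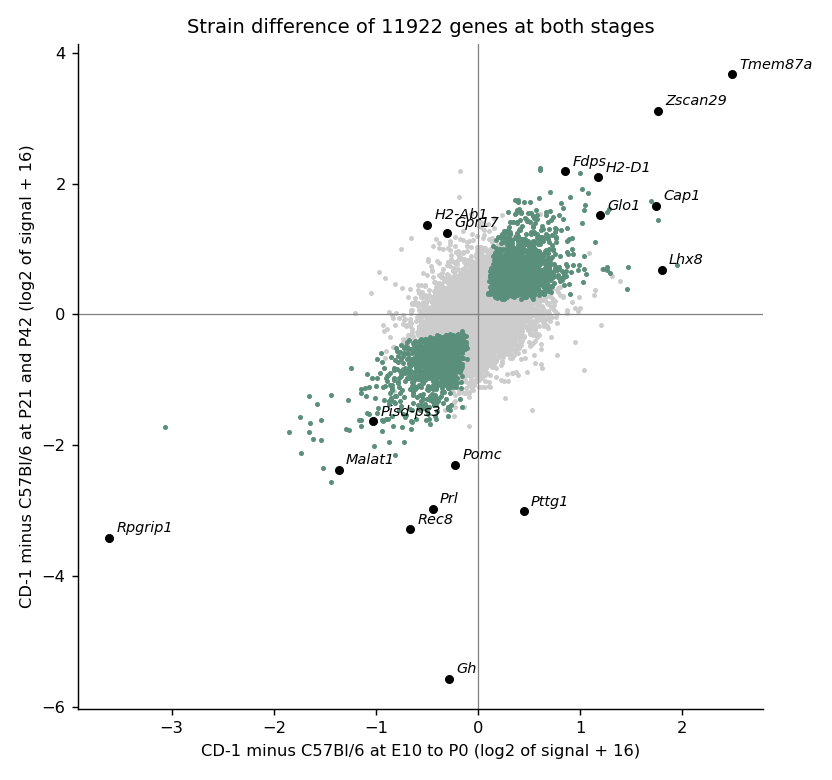
Difference of each of 11922 genes at E10 to P0 (horizontal axis) and at P21 and P42 (vertical axis), CD-1 minus C57Bl/6 in log2 of signal + 16. Green points were called at both stages with 1 sign, and black points are named. Tmem87a, Zscan29 and Rpgrip1 lie far from 0 on both axes, while Gh, Pomc and Rec8 lie far from 0 mainly at P21 and P42.

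Tmem87a, a Golgi membrane protein, was at 19.8, 20.8 and 29.5 in C57Bl/6, below the array median, and at 426.4 to 553.1 in CD-1. The difference was 3.67, and 2.49 at E10 to P0. Zscan29, a zinc finger protein, was at 4.3 to 6.3 in C57Bl/6, also below the array median, and 147.9 to 200.9 in CD-1, a difference of 3.11. The reverse held for Rpgrip1, a protein of the photoreceptor cilium, at 1525.8, 1214.4 and 1301.0 in C57Bl/6 and 80.7 to 138.0 in CD-1. It differed by -3.41 (SE 0.16, adjusted p = 8.44e-07), and by -3.61 at E10 to P0. Rec8, a cohesin subunit of meiosis, was at 149.9 to 182.1 in C57Bl/6 and 1.7 to 5.1 in CD-1, below the array median, a difference of -3.29. The other genes ranked highest by this rule were Cnnm4 (2.23), Cdc42ep2 (2.21), Fdps (2.19), Lrrc4b (2.16), H2-D1, Gm5617 (1.92), Ncan (1.87, its other probe set -0.19 and not called) and Gpatch11 (1.85). The lowest were Rpgrip1, Rec8, Prl, Tma16 (-2.56, 1 of 2 probe sets called), Malat1, Pcdhgc4 (-2.34, of a cluster whose genes share their last exons), Ttll3 (-2.15), Snhg11, Metap1d (-2.01) and Zbed6 (-1.95, 1 of 2 called). Of these 20 genes, 13 rested on a single tested probe set, Tmem87a, Zscan29, Rpgrip1 and Rec8 among them. Tmem87a, Zscan29, Cnnm4, Cdc42ep2, Gm5617, Gpatch11, Rec8 and Pcdhgc4 lay below the array median in every array of 1 strain. Their calls and ranks are descriptions with no test. At E10 to P0 the means of both strains were low for Prl (26.6 in C57Bl/6 and 13.6 in CD-1), Rec8 (21.0 and 4.7) and Gpatch11 (10.1 and 38.6). All of these lay below 51.3, the lowest median of the 7 arrays. Rpgrip1, Ttll3 and Snhg11 were still called with the beta-actin ratio as a covariate.

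Genes known to vary between laboratory strains were called higher in CD-1 in 8 of 24 cases (33.3%, beside 22.3% of all genes) and lower in 3 (12.5%, beside 18.0%). At E10 to P0, 16 were higher and 2 lower, beside 27.0% and 22.5% of all genes. Glo1, glyoxalase 1, which detoxifies methylglyoxal and lies in a segment copied in some strains, was at 255.3, 283.7 and 282.8 in C57Bl/6 and 637.3 to 931.5 in CD-1. The difference was 1.51 (SE 0.13, adjusted p = 1.29e-05), and 1.19 at E10 to P0. Of the other 3 probe sets of Glo1, 1 was called higher (0.50), 1 lower (-0.38) and 1 was not called. Apoa2, an apolipoprotein, was lower by -1.24, and by -1.10 at E10 to P0. It counts among the 3 lower, but lay below the array median in every CD-1 array and is given with no test. Nnt, a mitochondrial enzyme known to be deleted in part in C57BL/6J, differed by 0.17 (adjusted p = 0.248) in its brighter probe set and by -0.69 in the other. Gabra2, a GABA receptor subunit with a known C57BL/6J variant, differed by -0.12 (adjusted p = 0.55), with 1 of 3 probe sets called higher (0.89).

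Genes of cholesterol synthesis were called higher in 7 of 17 cases (41.2%, beside 22.3% of all genes) and lower in 2 (11.8%, beside 18.0%). The lower count was 0 without the CD-1 P21 female. Fdps, which makes farnesyl diphosphate, was at 150.7, 186.7 and 193.6 in C57Bl/6 and 819.8 to 974.9 in CD-1, a difference of 2.19 (SE 0.11, adjusted p = 1.15e-06). Sqle, another enzyme of the pathway, was at 340.7 to 382.5 against 708.9 to 790.8 (1.09). Fdft1 was higher by 0.78 in its brightest probe set, with a second probe set called lower (-0.41). Srebf2, the regulator of the pathway, was higher by 0.68, and Hmgcs1 was lower by -0.37 in its brightest probe set, with 2 of its 4 probe sets called higher.

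Imprinted genes, expressed from 1 parental copy, were called lower in 8 of 21 cases (38.1%, beside 18.0% of all genes) and higher in 3 (14.3%, beside 22.3%), with a median of -0.03. After quantile normalization 4 were lower and 5 higher with a median of 0.11. Without the CD-1 P21 female 5 were lower and 1 higher, and without the C57Bl/6 P21 male 1 was higher. Rian, Mirg and Meg3, non-coding RNAs of the Dlk1-Dio3 cluster, were all lower, by -0.97, -0.93 and -0.40, each with all its probe sets of 1 sign. Rian was at 1242.7, 1851.2 and 1887.9 in C57Bl/6 and 806.7 to 921.1 in CD-1 (SE 0.12, adjusted p = 0.000146). Kcnq1ot1, another imprinted non-coding RNA, was lower by -0.59, and Ndn, a gene of the Prader-Willi region, by -0.52. With all 47 arrays in 1 fit, 1 of the 21 was called lower and 2 higher.

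Ribosomal protein genes had the largest share of lower genes among the 38 lists, 17 of 23 (73.9%, beside 18.0% of all genes). A single gene was higher (4.35%, beside 22.3%), and the median was -0.41. Rpl35 was at 5309.0 to 5820.7 in C57Bl/6 and 2655.9 to 2931.9 in CD-1, a difference of -1.0 (SE 0.08, adjusted p = 9.26e-06), called in 5 of 5 probe sets. Rps20 (-0.96, 2 of 3 probe sets called) and Rps19 (-0.90) followed, while Rplp0 was higher (0.38). At E10 to P0, 2 were higher and 4 lower, beside 27.0% and 22.5% of all genes, and the median was -0.004. After quantile normalization 10 were lower and 4 higher with a median of -0.15, and with the beta-actin ratio as a covariate 0 were lower, 1 was higher and the median was 0.47.

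Very long mRNAs, listed because their 5′ parts lie far from the primed end, were lower in CD-1 in 13 of 25 cases (52.0%, beside 18.0% of all genes) and higher in 5 (20%, beside 22.3%), with a median of -0.35. With 1 array left out the higher count was 2 to 4. Nav1, a neuronal microtubule protein, was at 1359.9 to 1496.9 against 356.6 to 456.9, a difference of -1.78 (SE 0.10, adjusted p = 1.81e-06) in 4 of 4 probe sets. Dst (-1.29, 2 of 3 probe sets called), a cytoskeletal linker, and Trrap (-0.98), a scaffold of histone acetylases, were next, and Utrn (0.74, 1 of 2 called) was the highest. Genes of the respiratory chain went both ways, with 11 of 36 higher (30.6%, beside 22.3% of all genes) and 15 lower (41.7%, beside 18.0%). At E10 to P0, 22 were higher and 1 lower, beside 27.0% and 22.5% of all genes. Ndufa2, of complex I, was at 2064.7 to 2234.6 against 865.6 to 1118.4 (-1.01, SE 0.09), and Sdhd, of complex II, was higher by 1.29 in 1 probe set and lower by -0.78 in another. After quantile normalization 11 were higher and 7 lower, and the median turned from -0.11 to 0.14. Without the C57Bl/6 P42 female or the CD-1 P21 female 7 were lower, and 9 without the CD-1 P21 male. Without the C57Bl/6 P21 male 7 were higher.

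**Figure D5:**
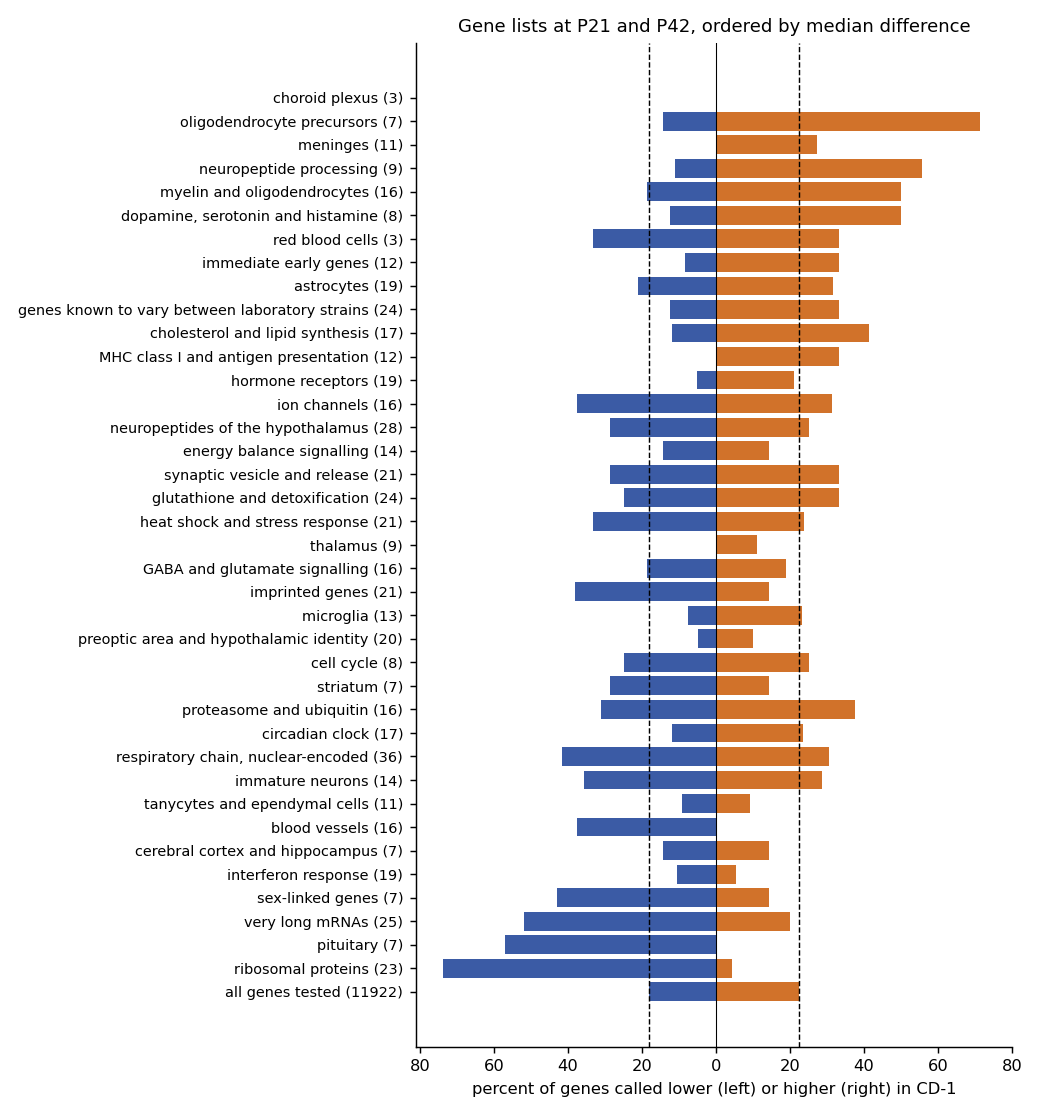
Percent of tested genes called lower (blue, left) and higher (orange, right) in CD-1 at P21 and P42 for all genes and for 38 lists, with the number of tested genes in parentheses and dashed lines at the shares of all genes, 18.0% and 22.3%. Ribosomal proteins reach 73.9% lower and oligodendrocyte precursors 71.4% higher. No test was made of a list.

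The strain difference changed between the stages in 1588 genes (13.3%), called by the interaction in limma, 819 (6.87%) toward CD-1 and 769 (6.45%) toward C57Bl/6 at P21 and P42. Among the 121 genes named here that were not below the array median in a whole strain or at E10 to P0, Pttg1 (-3.46) and Pomc (-2.16) had the largest negative interactions. Gpr17 (1.54), Fdps (1.36) and Aqp4 (1.35) had the largest positive ones. With the beta-actin ratio as a covariate 534 genes were called.

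Genes of hypothalamic and preoptic identity seldom differed. Of 20 tested, 2 were called higher (10.0%, beside 22.3% of all genes) and 1 lower (5.0%, beside 18.0%), with a median of -0.03. With 1 array left out 1 to 4 were higher and 0 or 1 lower. Lhx8, a factor for cholinergic neurons of the basal forebrain and preoptic area, was at 87.7 to 107.9 against 142.6 to 200.8 (0.69, SE 0.16, adjusted p = 0.00492) and was higher by 1.80 at E10 to P0, but was at -2.16 with the beta-actin ratio as a covariate. Nkx2-2 was higher by 0.77 and Six3 lower by -0.59. Choroid plexus, which can adhere to the dissected tissue, varied in both strains: Ttr was at 4998.8, 87.2 and 109.4 in C57Bl/6 and 119.1, 5128.9, 1232.2 and 2630.2 in CD-1, and was not called.

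In 5 genes called probe sets of opposite sign were furthest apart. Prdx2, an antioxidant enzyme, was at 1444.4 to 1681.5 in C57Bl/6 and 1877.1 to 2113.6 in CD-1 in 1 probe set (0.35) and at 918.5 to 1175.6 against 42.4 to 85.8 in the other (-3.85). The latter difference was already -3.11 at E10 to P0. Cd99l2, an adhesion molecule, ranged from -3.08 to 0.32 over 4 probe sets, 1 called higher and 2 lower, and was also apart earlier (-2.21 and 0.34). Ralgapa1, a regulator of Ral proteins, ranged from -0.65 to 3.04, Pfkp, a glycolytic enzyme, from -1.82 to 2.53, and Rtn4, which limits axon growth, from -1.64 to 2.02. For Pfkp the highest probe set was at 6.7 to 34.3 in C57Bl/6, below the array median, and 148.4 to 238.1 in CD-1. For these genes the direction of the strain difference is set by the choice of probe set.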

How the data were processed

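Total RNA from hypothalamus and preoptic area was labelled after 1 round of oligo-dT primed amplification and hybridised to Affymetrix mouse arrays, per the labels' protocols. The deposited values are intensities, as signal per probe set on a linear scale; GCOS 1.4 and MAS5 are named in the submitters' processing notes, and other steps are not given in the sources used here. The mean signal between the 2nd and 98th percentile was 150.0 in every array, so no scaling was added. The platform annotation gave 1 gene symbol to 34945 of the 45101 probe sets and several to 932; 9160 were unnamed here and 64 were controls.

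A probe set was tested when above its array's median in at least 3 of the 7 arrays, and a gene was represented by its brightest probe set. Log2(signal + 16) was fitted with limma 3.58.1 in R 4.3.3 (mean-variance trend; terms for strain, age and sex; 3 residual degrees of freedom and a prior of 8.451), with Benjamini-Hochberg adjustment over all genes and two-sided tests. The code was tested on simulated data. The fit at E10 to P0 used 40 arrays with strain, age and sex, and the interaction 47. Control ratios were compared by exact permutation. The number of arrays limits the precision.

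The text names the 10 highest and 10 lowest genes with agreeing probe sets, the 10 and 10 called at both stages, up to 3 of the largest per list, 24 key genes (5 of them not analysed here) and 5 genes with conflicting probe sets. A few others are named to complete a count or a group, chosen after their values were seen. The comparison, its members and the 38 lists (554 different genes tested) were chosen with earlier results of these data known. Alternatives covered the pseudocount, the filter, quantile normalization, the model terms, the arrays and the choice of probe set.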

Additional observations from a re-analysis of the deposited data

Results flagged for a closer look

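In 6 of the 152 genes examined, 1 of the 4 CD-1 arrays lay far from the other 3 by Dixon's criterion, which chance meets in about 1 group in 20; the 3 C57Bl/6 arrays are too few for it. The CD-1 P42 male was the distant array for Ccnd2 (230.6, others 153.2 to 161.2), Dst (350.4, others 456.3 to 461.2), Ralgapa1 (473.5, others 540.9 to 548.8) and Tma16 (38.6, others 57 to 60.5). The CD-1 P21 male was distant for Pam (595.9, others 1293.8 to 1441.1) and the CD-1 P42 female for Esr1 (206.6, others 138.1 to 146.4).

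In 42 of 121 genes the strain difference at P21 and P42 departed from that at E10 to P0, by limma's interaction of strain with stage. Among all genes tested the interaction was called in 13.3%. Many of the 121 were named for their difference at P21 and P42, so their share cannot be compared with that of all genes. Mobp, which chose the arrays, and genes below the array median in a whole strain or in both strains at E10 to P0 are left out. Values are the later difference minus the earlier one, in log2. Among hormones, peptides and their processing they were Pomc -2.16, Pam 0.89 and Qpct 0.79. For receptors, transporters and transmitter enzymes they were Oprl1 1.16, Slc6a3 0.93, Nr3c1 0.71 and Gria1 -0.98. Glial genes gave Gpr17 1.54, Aqp4 1.35, P2ry12 1.03, Fa2h 1.01, Tspan2 0.88 and C1qb -1.33, and the class I gene H2-D1 gave 0.95.

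Genes of sterol synthesis gave Fdps 1.36, Sqle 0.75, Srebf2 0.52 and Fdft1 0.38. Cell division genes gave Pttg1 -3.46 and Pcna 0.86. Ribosomal, respiratory and long mRNAs gave Rpl35 -0.92, Rps19 -0.85, Rps20 -0.65, Rps9 -0.54, Ndufa2 -1.01, Sdhd 0.84, Trrap -1.03, Dst -0.88, Nav1 -0.86 and Utrn 1.05. The rest were Ncan 1.17, Lrrc4b 1.14, Syngr3 0.97, Kpna3 0.93, Rnf13 0.88, Ralgapa1 0.41, Vcp -0.49, Mirg -0.70, Metap1d -0.93, Zbed6 -1.04, Sbsn -1.11 and Ttll3 -1.38.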

How the results depend on the processing

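The count of 4803 genes (2653 higher, 2150 lower) stayed within 1.5 times under other pseudocounts, no filter, quantile normalization, strain alone, P21 alone and the mean of all probe sets. With the mean of all probe sets, though, 3607 of the 4803 were still called with the same sign and 398 turned sign, 99 of these with a call. The count was 3317 with 47 arrays in 1 fit (1403 lower) and 1297 with the left-out array (719 higher, 578 lower). With 47 arrays and the beta-actin ratio as a covariate it was 439 (193 higher, 246 lower). Leaving out 1 array gave 2949 to 4975 genes (1655 to 2705 higher, 1231 to 2270 lower). Leaving out both C57Bl/6 females, a choice made after seeing the data, gave 2434 (1472 higher, 962 lower). The labels give no replicate numbers; arrays matched for age and sex as a block gave 4975, which equals leaving out the unpaired CD-1 P42 male. With the ratio as a covariate the E10 to P0 count fell from 5906 to 2477 and the interaction count from 1588 to 534. Without the filter 331 genes, not 537, had all probe sets called 1 way. The beta-actin difference of 1.87 was 1.81 to 1.94 with each array left out.

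Of 152 genes named, 20 turned sign with the covariate, none of them called: B2m -1.25, Cadps -0.32, Caskin1 0.19, Gria2 0.26, Hmgcs1 0.17, Ifit2 -1.12, Lhx8 -2.16, Ndn 0.50, Olig1 -0.45, Oxt 0.32, Pdgfra -2.23, Pmch 0.68, Rpl35 0.19, Rps20 0.32, Sdhd -0.07, Sirpa -0.37, Six3 1.38, Sst -2.62, Stmn2 -1.06 and Tma16 0.32. Another 96 lost their call. With the left-out array 10 turned, none called: Adcyap1 0.21, Cnp 0.63, Dbp 0.24, Hcrt 0.13, Mbp 1.44, Mobp 0.99, Oxt 0.69, Pmch 0.41, Rplp0 -0.02 and Vcan -0.18. As means over probe sets 6 turned. Cd99l2 (-1.16, limma adjusted p = 4.77e-05), Cnp (0.63, 0.000565) and Prdx2 (-1.75, 4.79e-06) were called the opposite way, while Adcyap1 0.02, Hdc 0.22 and Hmgcs1 0.21 were not called. The cause of these changes was not tested. With 3 against 4 arrays and the ratio tied to strain, a strain difference and an effect of the ratio cannot be told apart.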

Other observations

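Genes of the circadian clock were split between the strains. Of 17 tested, 4 were called higher in CD-1 (23.5%, beside 22.3% of all genes) and 2 lower (11.8%, beside 18.0%), with a median of -0.11. The higher count was 1 without the CD-1 P21 female and 2 without the CD-1 P21 male. Nr1d1, a repressor of the clock, was at 44.5, 74.1 and 91.5 in C57Bl/6 and 100.7 to 146.2 in CD-1, a difference of 0.63 (SE 0.21, limma adjusted p = 0.0312). Dbp, an output gene of the clock, was at 926.8 to 1191.5 against 512.7 to 783.1, a difference of -0.57 (limma adjusted p = 0.00238), with its second probe set called higher. Per1, a clock gene that also responds to activity, was lower by -0.51, and Cry2, a repressor, higher by 0.60. None of these 4 genes was called at E10 to P0. The time of day of dissection was not analysed here.

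Genes of immature neurons were called lower in 5 of 14 cases (35.7%, beside 18.0% of all genes) and higher in 4 (28.6%, beside 22.3%), with a median of -0.18. After quantile normalization 3 were lower and 5 higher with a median of -0.08, and 3 were lower without the CD-1 P21 female. Dcx, a microtubule protein of migrating neurons, was at 757.1, 530.5 and 476.1 in C57Bl/6 and 175.5 to 348.2 in CD-1, a difference of -1.19 (SE 0.19, limma adjusted p = 0.000514), with 1 of 2 probe sets called. Tubb2b, a tubulin of growing axons, was lower by -0.94. Stmn2, which binds tubulin in growing axons, was higher, at 1223.0 to 1483.5 against 2250.4 to 2914.9, a difference of 0.95 (SE 0.11, limma adjusted p = 7.93e-05), with 1 of 2 probe sets called. Of 21 stress response genes 5 were called higher (23.8%, beside 22.3%) and 7 lower (33.3%, beside 18.0%). Without the C57Bl/6 P42 female 2 were higher and 3 lower, without the C57Bl/6 P21 male 2 were higher, and without the CD-1 P21 female or male 3 were higher. Herpud1, which helps clear misfolded proteins from the endoplasmic reticulum, was at 268.5 to 350.7 against 674.3 to 817.6, a difference of 1.16 (SE 0.13), with 1 of 2 probe sets called. The near-identical heat shock genes Hspa1b and Hspa1a gave 0.71 and -0.86, and how their probes divide between the copies is uncertain.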
